A study of Homo sapiens with 414 samples.

Results

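Ibuprofen and naproxen are arylpropionic acids, non-steroidal anti-inflammatory drugs in which a propionic acid with a methyl branch is joined to an aromatic ring system, an isobutylphenyl ring in ibuprofen and a methoxynaphthalene in naproxen. All libraries labelled Ibuprofen or Naproxen sodium were taken, except the ibuprofen library of day 8, which left 19 of 414 libraries. Ibuprofen at 20 µg/ml had 9 libraries, from days 1, 2, 3, 4, 6, 10, 21, 27 and 39 of exposure. Naproxen sodium at 30 µg/ml had 10, from days 1, 2, 3, 4, 8, 10, 15, 21, 27 and 39. The cultures were H1-NPC, neural progenitor cells of the human embryonic stem cell line H1, expanded with FGF2, seeded in wells without it and exposed from the day of seeding in a screen for neurotoxicity. Every compound had 1 dose and at most 1 library per day, so the replicates of a compound are its days. Nothing in the labels says whether wells came from separate cultures, and the whole study rests on 1 cell line. Both drugs are labelled non-toxic, and each was compared with 114 libraries of the other 14 compounds of that class on its own days, and both together with 128. These were acetaminophen at 10 µg/ml, aspirin at 20 µg/ml, amoxicillin at 5 µg/ml, glucosamine at 0.4 µg/ml, PVP at 100 µg/ml, DMSO at 0.1%, and glycerol, Ficoll 400, glyphosate, saccharin, sorbitol, sucrose, fructose and PEG 3350 at 10 µM each. The solvent of ibuprofen and naproxen is not given in the sources used here.

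Both drugs block the prostaglandin synthases PTGS1 and PTGS2 (cyclooxygenases), which turn arachidonic acid into the precursor of prostaglandins and thromboxane. Arylpropionic acids also resemble fatty acids. They can be joined to coenzyme A as fatty acids are, and at high concentration they can activate peroxisome proliferator-activated receptors (PPARs). PPARs pair with retinoid X receptors and, when fatty acids bind them, switch on genes of fatty acid uptake, mitochondrial import and oxidation. CPT1A, which loads long-chain acyl groups onto carnitine at the mitochondrial outer membrane, and ANGPTL4, a secreted inhibitor of lipoprotein lipase, are among the best known of these genes.

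Values are TPM, a gene's length-corrected share of its library. Differences are on the scale of log2(TPM + 1), which understates the change of low genes, and are printed ± SE from a limma model that holds the day fixed and treats the compound as a block. A gene rose or fell where the Benjamini-Hochberg adjusted p over 16318 genes was under 0.05. The control range of a day runs from the lowest to the highest value of the other non-toxic compounds on that day. Read depth is unknown, so the precision of a low TPM is unknown too. The 19 libraries had 13285 to 14236 genes at 1 TPM or more, beside 13267 to 14260 in the other non-toxic libraries. The day 8 ibuprofen library had 11861, and 59.5% of its genes at 10 TPM or more lay over 1 log2 from the same-day mean, beside at most 0.408% in the other non-toxic libraries. The progenitor marker SOX2 (median 248.05 and 239.385 TPM) and the neuronal marker TUBB3 (2688.68 and 2654.585) were high with ibuprofen and naproxen alike. PAX6, also a progenitor marker, was lower (8.31 and 8.155). The mesenchymal marker COL1A1 had medians of 391.45 and 473.605 TPM, beside 320.96 in the other non-toxic libraries. The astrocyte marker GFAP ran from 0.36 to 3573.15 TPM with ibuprofen and from 0.4 to 3742.43 with naproxen. The microglial marker AIF1 did not exceed 0.28 TPM in these libraries. The summed astrocyte, neural progenitor and oligodendrocyte lineage markers lay below the same-day control mean in 9 of 9 ibuprofen libraries, by a median log2 of -0.10, -0.05 and -0.06. Under naproxen they lay below it in 7, 5 and 6 of 10 libraries. Such sums follow their most abundant genes, and 4 of the 8 oligodendrocyte lineage genes had positive differences with ibuprofen. Fewer cells of a type and less RNA per cell cannot be told apart in such bulk samples.

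The stretches before the start of CPT1A and ANGPTL4 are shown because both genes rose with both drugs. The sequences are RefSeq's in GRCh38.p14, the 250 bases before the annotated start in the direction of the gene, on the minus strand for CPT1A (chr11:68844278-68844527) and the plus strand for ANGPTL4 (chr19:8363905-8364154).
CPT1A: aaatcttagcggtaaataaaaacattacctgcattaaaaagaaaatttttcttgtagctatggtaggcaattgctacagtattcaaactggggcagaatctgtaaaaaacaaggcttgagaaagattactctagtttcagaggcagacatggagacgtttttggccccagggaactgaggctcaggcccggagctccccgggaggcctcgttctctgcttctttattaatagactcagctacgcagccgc
ANGPTL4: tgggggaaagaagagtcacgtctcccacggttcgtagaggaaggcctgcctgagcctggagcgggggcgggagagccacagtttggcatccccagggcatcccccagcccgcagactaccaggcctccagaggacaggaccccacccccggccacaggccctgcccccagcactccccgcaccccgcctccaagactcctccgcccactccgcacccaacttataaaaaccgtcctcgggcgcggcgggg
The PPAR response element was searched in its textbook form, AGGTCA repeated after 1 base of any kind, on both strands. These letters are not in either window, and 0.0171% of 35116 promoters of this length hold them. With so rare a string, its absence does not tell whether either gene has a PPAR site. Looser forms, and bases outside these windows, were not searched. GC content was 44.4% before CPT1A and 68.8% before ANGPTL4.

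Over all days CPT1A had the largest rise with each drug. In the 9 ibuprofen libraries it ranged from 6.52 to 15.64 TPM, median 11.64, and in the 10 naproxen libraries from 2.13 to 8.28 TPM, median 5.81. The controls stood between 0.32 and 4.32 TPM over all days. Each library of either drug was above the control range of its day, 9 of 9 for ibuprofen and 10 of 10 for naproxen. The rise of CPT1A was 2.09 ± 0.07 with ibuprofen (adjusted limma p = 2.49e-49) and 1.25 ± 0.07 with naproxen (2.05e-30). On day 4 CPT1A stood at 11.78 TPM with ibuprofen and 3.37 with naproxen beside 0.62 to 1.99 in the controls. On day 39 it stood at 14.66 and 8.28 beside 2.53 to 4.14. The doses differ, 20 and 30 µg/ml, so the values of both drugs stand side by side here and throughout, and no difference between them was tested.

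ANGPTL4 ranged from 1.11 to 200.3 TPM, median 3.91 with ibuprofen, and from 0.47 to 79.47 TPM, median 1.51 with naproxen. The controls ran from 0 to 49.96 TPM, and the late days held the highest values in all groups. ANGPTL4 was above the control range in 8 of 9 ibuprofen and 7 of 10 naproxen libraries. It rose by 1.73 ± 0.16 with ibuprofen (adjusted limma p = 6.33e-16) and by 0.79 ± 0.14 with naproxen (0.000211). On day 27 ANGPTL4 reached 54.28 TPM with ibuprofen and 17.01 with naproxen beside 4.25 to 13.31 in the controls. On day 39 it reached 200.3 and 79.47 beside 31.99 to 49.96. With a pseudocount of 0.1 TPM the naproxen difference of ANGPTL4 was 1.38 and no longer called (adjusted limma p = 0.0945). Against DMSO alone it was 0.80 ± 0.23 and not called either (0.154).

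**Figure D1:**
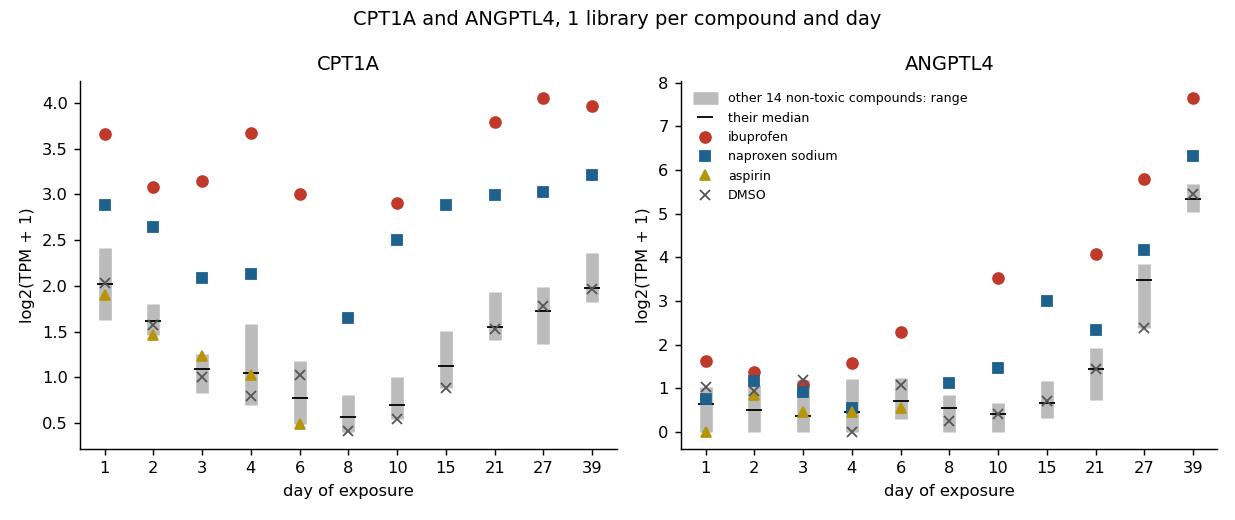
CPT1A (left) and ANGPTL4 (right) as log2(TPM + 1) by day of exposure, with days evenly spaced. Each symbol is 1 library, grey bars span the other non-toxic compounds, aspirin included, and black ticks are their medians. For CPT1A ibuprofen and naproxen lie above the grey bar on each day they were sampled, and for ANGPTL4 in 15 of 19 libraries.

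The same values were also taken as 1 number per compound, the mean over its days of the deviation from the same-day mean. CPT1A was higher in ibuprofen and naproxen than in the other 14 compounds by 1.67, and ANGPTL4 by 1.27. Both genes were picked for this pattern, so these differences are a description. Among all 45 compounds of the series ibuprofen stood 3rd for CPT1A (2.09), after cadmium (2.73) and arsenic (2.71), and naproxen stood 10th (1.25). The compounds between them, such as okadaic acid, dexamethasone and retinoic acid, are all labelled toxic. The next of the non-toxic class, saccharin, averaged 0.19. For ANGPTL4 ibuprofen stood 5th and naproxen 9th. Doses differ between these compounds, and cadmium, arsenic and okadaic acid were sampled only up to day 6, so this order is a description.

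**Figure D2:**
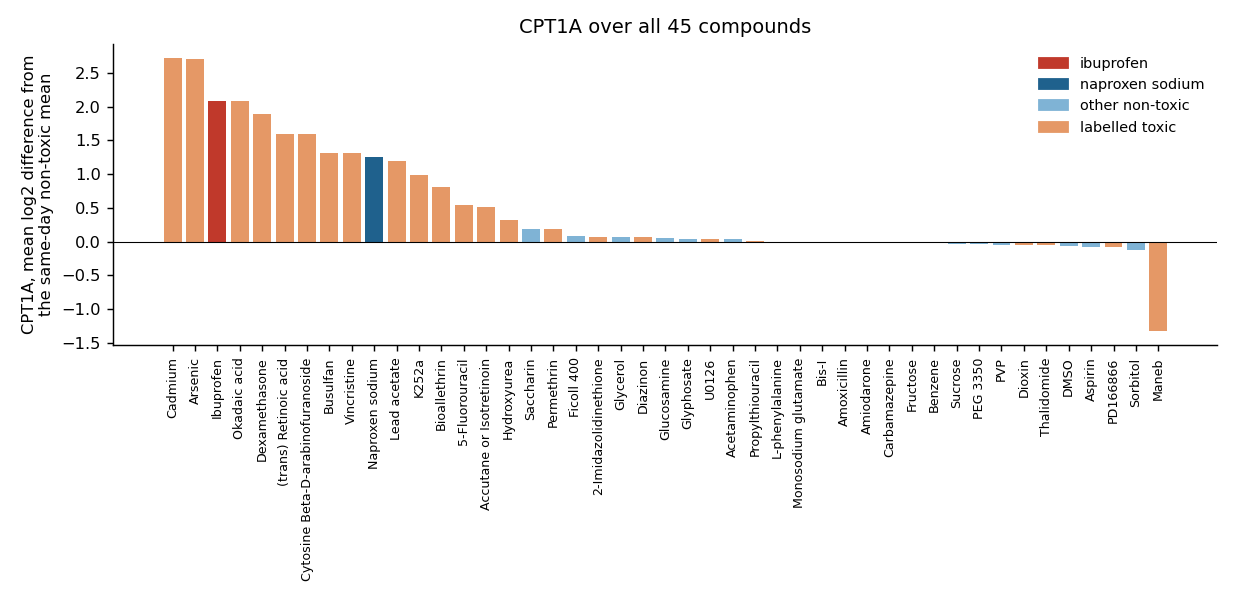
Mean log2 difference of CPT1A from the same-day mean of the non-toxic compounds other than ibuprofen and naproxen, for each of the 45 compounds over its libraries, without ibuprofen day 8. Ibuprofen (2.09) and naproxen sodium (1.25) stand among compounds labelled toxic, and the other non-toxic compounds lie at or below 0.19.

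Of 22 PPAR target genes, 19 were expressed enough to be tested. With ibuprofen 4 of the 19 rose (CPT1A, ANGPTL4, SLC25A20 and CAT), 0 fell, and their median difference was 0.05 beside 0.00 for all genes. Over all genes 0.0919% were called higher with ibuprofen and 0.227% lower. With naproxen 2 of the 19 rose, CPT1A and ANGPTL4, and the median was 0.04, beside 0.0981% of all genes called higher and 0.0306% lower. The ibuprofen and naproxen comparisons share their controls. CPT1A and ANGPTL4 were picked for this pattern and count among the genes that rose, so these counts are a description.

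SLC25A20, which carries acylcarnitines across the mitochondrial inner membrane once CPT1A has made them, ranged from 14.31 to 28.84 TPM, median 22.57, with ibuprofen, and the control days averaged 16.7. It was above the control range in 7 of 9 ibuprofen libraries and rose by 0.39 ± 0.06 (adjusted limma p = 6.18e-06). Naproxen libraries ranged from 12.32 to 22.53 TPM, median 19.795, and the difference of 0.21 ± 0.06 did not pass (0.317). CAT, the catalase that removes hydrogen peroxide in peroxisomes, ranged from 33 to 59.84 TPM, median 48.7, with ibuprofen and rose by 0.25 ± 0.05 (0.00063). CAT was above the same-day control mean in 9 of 9 ibuprofen and 10 of 10 naproxen libraries, and its naproxen difference was 0.15 ± 0.04 (0.271). PDK4, the kinase that turns pyruvate dehydrogenase off when fat is burnt, passed over all days for both drugs together, by 0.30 ± 0.07 (adjusted limma p = 0.0145). On days 8 to 39 alone PDK4 also rose with ibuprofen, by 0.77 ± 0.16 (0.0332), and on days 1 to 6 it was at 0.06 ± 0.07 for both drugs (0.987). PDK4 was at most 1.52 TPM in any control, and on day 39 it stood at 4.94 TPM with ibuprofen and 2.57 with naproxen beside 0.74 to 1.52. Without day 39, without day 27 or with a pseudocount of 0.1 TPM PDK4 was not called (adjusted limma p = 0.392, 0.147 and 0.259).

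The other PPAR target genes did not pass. PLIN2, which coats lipid droplets, differed by -0.03 ± 0.05 with ibuprofen and 0.04 ± 0.05 with naproxen, at means of 48 ± 27.8 and 45.6 ± 29.2 TPM (SD, n = 9 and 10). LPL, the lipase that ANGPTL4 inhibits, was at -0.11 ± 0.05 and 0.02 ± 0.05. CPT2, the partner of CPT1A on the inner membrane, was at 0.05 ± 0.05 and -0.08 ± 0.05. CD36, a fatty acid transporter, was at -0.08 ± 0.11 with ibuprofen and 0.27 ± 0.11 with naproxen (adjusted limma p = 0.79), where it ran from 0.4 to 5.47 TPM. CREB3L3 and VNN1 were below the limit of testing.

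The enzymes that follow CPT1A and SLC25A20 were taken as 21 genes of mitochondrial fatty acid oxidation. With ibuprofen 3 rose, 0 fell and 18 did not pass, and the median was 0.02. They were ACADVL, the very long chain acyl-CoA dehydrogenase (0.24 ± 0.05), ACAA2, a thiolase of the last step (0.14 ± 0.03), and ETFA, which takes up the electrons of the dehydrogenases (0.14 ± 0.03). ACADVL averaged 175 ± 26.7 TPM with ibuprofen (SD, n = 9) beside 149.2 over the control days. The call of ETFA was lost in 6 of 9 fits that left out a day, and those of ACADVL and ACAA2 in 1 of 9 each. With naproxen 0 of 21 passed, with 0.12 ± 0.05 for ACADVL, 0.11 ± 0.03 for ACAA2 and 0.10 ± 0.04 for ETFA. For both drugs together ACADVL, ACAA2 and ETFA rose by 0.18 ± 0.04, 0.13 ± 0.02 and 0.12 ± 0.03, and ACAA2 was above the same-day control mean in 19 of 19 libraries. Of 16 peroxisomal genes ECH1, an enoyl-CoA isomerase, was the 1 that passed with ibuprofen (0.19 ± 0.04), and 0 passed with naproxen (0.02 ± 0.04 for ECH1).

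**Figure D3:**
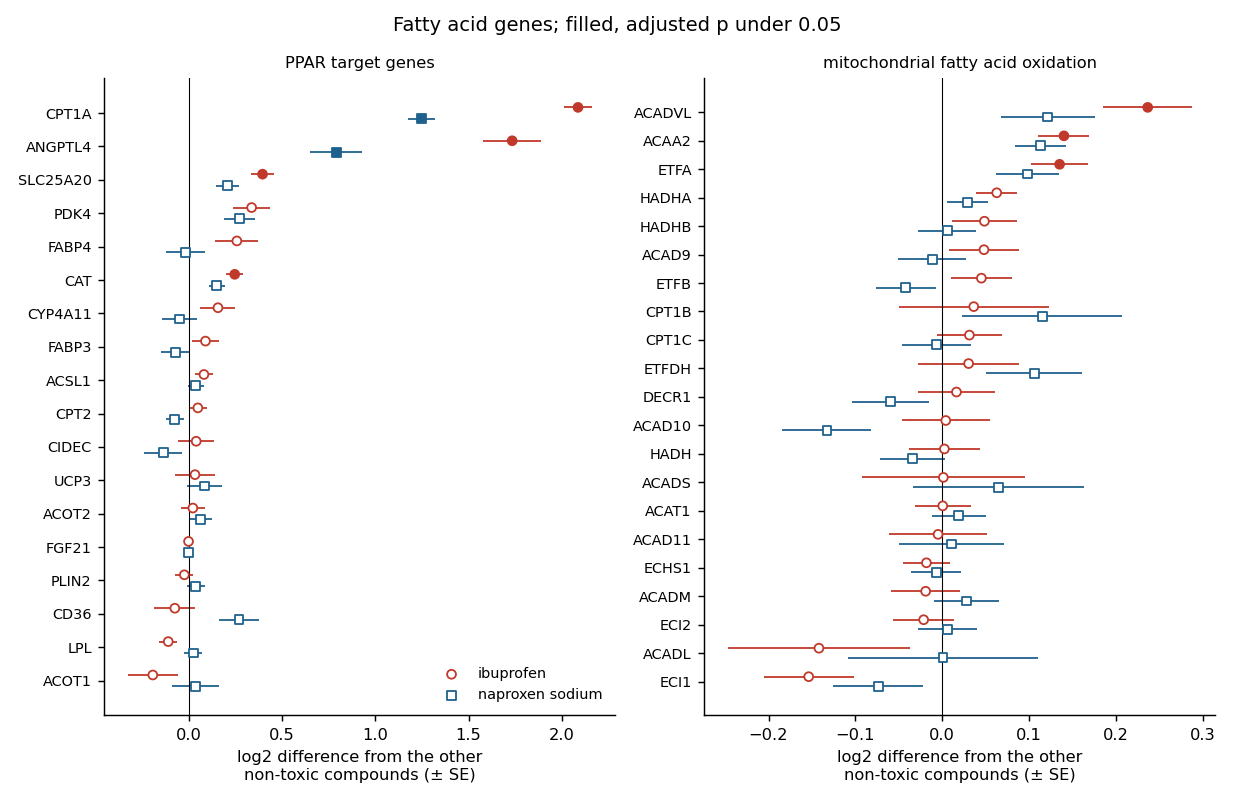
Log2 differences ± SE from the other non-toxic compounds for tested PPAR target genes (left) and mitochondrial fatty acid oxidation genes (right), ibuprofen in circles over 9 libraries and naproxen sodium in squares over 10. Filled symbols passed an adjusted p under 0.05. CPT1A and ANGPTL4 have the largest differences with both drugs, and most other genes lie near 0.

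The receptors that sense fatty acids did not pass: of 14 PPARs, partners and coregulators 0 were called with either drug. PPARD was the most abundant PPAR, at 29.5 ± 5.24 TPM with ibuprofen and 28.8 ± 6.47 with naproxen (SD, n = 9 and 10). PPARA stood at 4.88 ± 0.982 and 5.21 ± 1.15 TPM, and PPARG at 0.718 ± 0.679 and 0.721 ± 0.565. The drugs' targets as medicines were low in these cultures. PTGS1 ranged from 0.26 to 2.03 TPM, median 1.37, with ibuprofen and from 0.2 to 2.24 TPM, median 0.92, with naproxen. PTGS2 did not exceed 1.06 and 0.98 TPM. Differences from the controls were -0.02 ± 0.07 and 0.01 ± 0.07 for PTGS1 and 0.09 ± 0.05 and 0.04 ± 0.05 for PTGS2. Of 15 tested genes of prostanoid synthesis and breakdown, and of 6 tested prostanoid receptors, 0 were called with either drug. Of 10 tested genes that metabolise or carry arylpropionic acids 0 passed, and CYP2C19 and UGT2B7, known from the liver, were below the limit of testing.

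A small group outside the fatty acid lists also rose. ABCA1, the pump that hands cholesterol to lipid-poor apolipoprotein, ranged from 6.56 to 21.55 TPM, median 10.22, with ibuprofen and from 4.56 to 21.19 TPM, median 9.725, with naproxen, beside 3.21 to 14.23 in the controls. It was above the control range in 7 of 9 and 6 of 10 libraries. ABCA1 rose by 0.45 ± 0.08 with ibuprofen (adjusted limma p = 7.73e-05) and by 0.35 ± 0.08 with naproxen (0.015). The naproxen call of ABCA1 was lost in 4 of 10 fits that left out a day, without day 2, 21, 27 or 39, and the difference was lowest without day 39, at 0.27 (0.244). ABCG1, another sterol pump, and LPCAT3, which puts polyunsaturated acyl chains on phospholipids, rose with ibuprofen by 0.26 ± 0.06 and 0.18 ± 0.04. Both calls were lost in 5 of 9 fits that left out a day, and with naproxen ABCG1 was at 0.09 ± 0.07 and LPCAT3 at 0.07 ± 0.04.

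KLF10, a zinc finger repressor known as an early response gene of TGF-beta, ranged from 14.08 to 46.38 TPM, median 17.86, with ibuprofen. It was above the control range in 9 of 9 libraries and rose by 0.48 ± 0.06 (adjusted limma p = 5.9e-08). CPT1A and KLF10, 0.0123% of the genes tested, were the only genes above that range in each ibuprofen library. In naproxen libraries KLF10 was at 0.21 ± 0.06 (0.395) and above the range in 4 of 10.

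For both drugs together 25 genes were called higher over the 19 libraries (0.153% of those tested) and 19 lower (0.116%). With 1 value per compound in place of its days, limma across all genes called 7. CPT1A (1.67 ± 0.12), ANGPTL4 (1.27 ± 0.15), ABCA1 (0.40 ± 0.05), KLF10 (0.34 ± 0.05), PDK4 (0.31 ± 0.05) and SLC25A20 (0.30 ± 0.05) rose, and PRODH (-0.28 ± 0.03) fell. MARCH3, a membrane-bound ubiquitin ligase, rose over the 19 libraries by 0.26 ± 0.05 (adjusted limma p = 0.00294), from a control average of 3.09 TPM. TPPP3, a tubulin-binding protein, and ACBD7, of the acyl-CoA-binding family, fell by 0.38 ± 0.09 and 0.17 ± 0.04, and both were no longer called without day 39, among other days.

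PRODH, the mitochondrial enzyme that starts the breakdown of proline, fell with both drugs. In ibuprofen libraries it ranged from 36.04 to 128.72 TPM, median 79.74, and lay below the control range of its day in 9 of 9. No other gene did so, a share of 0.00613% of those tested. PRODH was at -0.35 ± 0.05 with ibuprofen (adjusted limma p = 4.79e-08) and at -0.20 ± 0.05 with naproxen (0.0139), where it was below the range in 5 of 10 libraries. The naproxen call of PRODH was lost in 3 of 10 fits that left out a day, without day 1, 2 or 39. DMSO averaged -0.09 from the remaining controls on the ibuprofen days, and against DMSO alone PRODH was at -0.27 ± 0.10 with ibuprofen and not called (0.448). ALDH4A1, which acts later on the same path, fell for both drugs together, to -0.16 ± 0.03 (0.00167), and its DMSO average was -0.14.

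With ibuprofen 37 genes fell in all, by a median of -0.22. CBS, which commits homocysteine to cysteine, was at -0.24 ± 0.03 and below the control range in 8 of 9 libraries. MCCC1, of leucine breakdown, was at -0.20 ± 0.04 and PLIN5, a lipid droplet protein, at -0.38 ± 0.09. The list also held TH, the rate-limiting enzyme of catecholamine synthesis (-0.45 ± 0.10), SFRP4, a secreted WNT antagonist (-0.48 ± 0.11), and SLC15A3, a peptide and histidine transporter (-0.50 ± 0.11). TSPO, of the mitochondrial outer membrane, was at -0.36 ± 0.08, SNCG, gamma-synuclein, at -0.38 ± 0.09, the receptor EPHA2 at -0.38 ± 0.09 and the carbonic anhydrase CA14 at -0.34 ± 0.08. Of 11 astrocyte genes CLU fell (-0.22 ± 0.04), and the median of the 11 was -0.14 with ibuprofen and 0.01 with naproxen. The marker sums of the astrocyte and the oligodendrocyte lineage were below the control mean in 9 of 9 ibuprofen libraries, as given above. Gene by gene, 10 of 11 astrocyte genes but only 4 of 8 oligodendrocyte lineage genes had negative differences with ibuprofen. The part of either lineage in these falls was not tested. When a day was left out, the call was lost in 5 of 9 fits for PLIN5, 5 of 9 for CA14, 4 of 9 for EPHA2, 3 of 9 for SNCG, 3 of 9 for TSPO, 3 of 9 for SFRP4, 2 of 9 for SLC15A3 and 2 of 9 for TH. With naproxen CBS was at -0.09 ± 0.03, EPHA2 at 0.16 ± 0.09 and CA14 at 0.05 ± 0.08, none of them called.

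The DMSO libraries lay on the same side as these falls. In 37 of 37 genes DMSO averaged below the remaining controls, by a median of -0.11, while 46.4% of all genes were below 0 there. For CA14 the DMSO average was -0.33, for EPHA2 -0.28 and for CBS -0.12. With DMSO as the only control, at 1 library a day on each side, CPT1A was the 1 gene called for ibuprofen (2.12 ± 0.13, adjusted limma p = 0.000163). Differences from DMSO alone, none of them called, were -0.04 ± 0.08 for CA14, -0.12 ± 0.14 for EPHA2 and -0.13 ± 0.04 for CBS, and -0.16 ± 0.05 for MCCC1, -0.33 ± 0.09 for PLIN5 and -0.35 ± 0.14 for SLC15A3. The rises of ANGPTL4 (1.67 ± 0.37), KLF10 (0.48 ± 0.06) and ABCA1 (0.43 ± 0.09) were not called against DMSO alone either (adjusted limma p = 0.276, 0.128 and 0.276). The solvent's part in the falls was not tested. Of the 15 genes that rose with ibuprofen 9 had a DMSO average above 0, beside 53.4% of all genes. That average was -0.03 for CPT1A, 0.07 for ANGPTL4, 0.00 for KLF10, 0.03 for ABCA1, 0.12 for SLC25A20 and 0.11 for ABCG1.

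**Figure D4:**
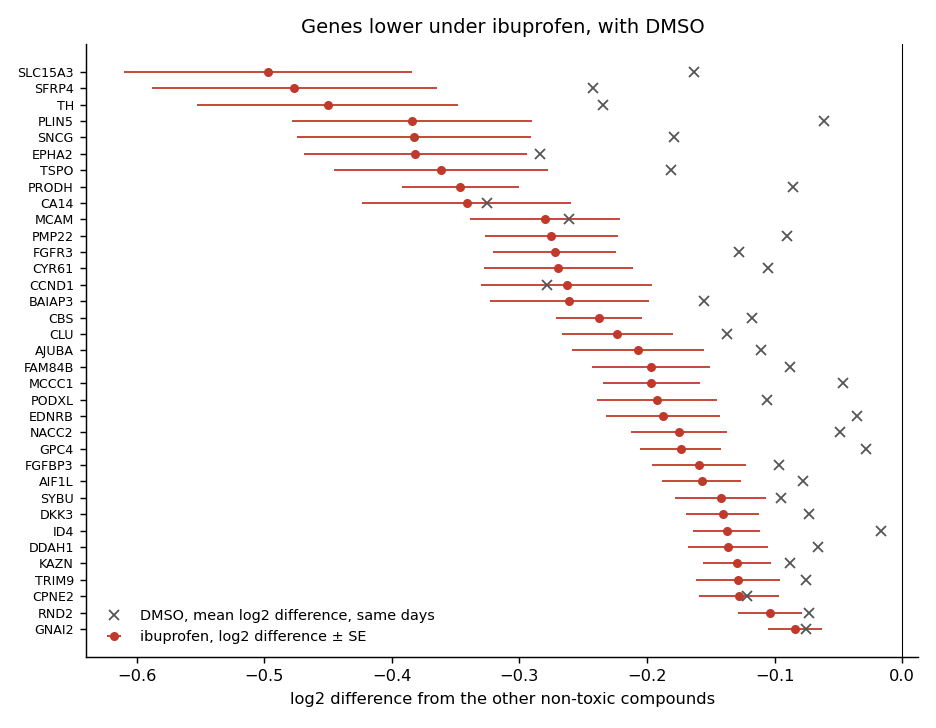
Genes lower with ibuprofen, as log2 difference ± SE from the other non-toxic compounds over 9 libraries, with the mean log2 difference of the DMSO libraries from the remaining controls on the same days as crosses. The crosses lie left of 0 for each gene drawn, and for CA14, MCAM, CCND1, CPNE2 and GNAI2 they lie within the SE of the ibuprofen value.

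Naproxen sodium was called for 16 genes higher and 5 lower. MDK, the heparin-binding growth factor midkine, ranged from 339.4 to 797.66 TPM, median 451.01, and was above the control range in 10 of 10 libraries. It rose by 0.38 ± 0.04 (adjusted limma p = 4.91e-11). XPO1, the exportin that carries proteins out of the nucleus, ranged from 131.59 to 236.73 TPM, median 202.82, also above the range in 10 of 10. XPO1 rose by 0.25 ± 0.03 (3.97e-09). CPT1A, MDK and XPO1, 0.0184% of the genes tested, were the only genes above that range in each naproxen library. ODC1, ornithine decarboxylase, which makes the polyamine putrescine, ranged from 269.79 to 575.2 TPM, median 498.36, and rose by 0.35 ± 0.05 (2.85e-06). SAT1, which acetylates polyamines for export and breakdown, rose by 0.29 ± 0.06 (0.00549). With ibuprofen the values were -0.03 ± 0.04 for MDK, 0.03 ± 0.03 for XPO1, 0.07 ± 0.05 for ODC1 and 0.03 ± 0.07 for SAT1, none called.

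Transporters were among the other naproxen rises. SLC43A2, a carrier of large neutral amino acids, rose by 0.43 ± 0.07 and was above the control range in 8 of 10 libraries. SLC16A9 and SLC16A14, of the monocarboxylate carrier family, rose by 0.40 ± 0.09 and 0.24 ± 0.05, and SLC44A2, a choline transporter-like protein, by 0.22 ± 0.04. The call of SLC16A9 was lost in 2 of 10 fits that left out a day. ARRDC3, an alpha-arrestin that guides receptor trafficking, rose by 0.40 ± 0.06 and HMGN1, a nucleosome-binding protein, by 0.16 ± 0.03. DMSO averages on these days were -0.25 for SLC43A2, -0.15 for SAT1, -0.12 for ARRDC3, -0.09 for MDK and 0.04 for XPO1. Against DMSO alone 81 genes were called for naproxen, 66 higher and 15 lower, and 11 of them were among the 21 naproxen genes. These 11 included CPT1A, MDK, XPO1, ODC1 and TXNIP. ABCA1 (0.28 ± 0.09, adjusted limma p = 0.207) and PRODH (-0.16 ± 0.07, 0.369) were among the naproxen genes not called there. A difference from DMSO alone holds the shift of DMSO itself as well.

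Several of these genes carry the 6-base E-box CACGTG, a site of MYC and MLX family factors, before the start. It stood at position -29 from the start in ODC1 (chr2:10448024-10448053), -47 in SLC16A9 (chr10:59710109-59710138) and -44 in XPO1 (chr2:61537114-61537143), all on the minus strand of GRCh38.p14. The 30 bases around each are shown with the E-box in capitals.
ODC1: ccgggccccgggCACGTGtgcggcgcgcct
SLC16A9: gcttggccagggCACGTGgtgggcggcggg
XPO1: gtccgcctgcatCACGTGgccccctcggtg
In all, 4 of the 12 naproxen genes named by rule that had a RefSeq promoter held it within 250 bases, ABCA1 being the other, beside 6.34% of all promoters. The motif was picked with these results known, so the count is a description.

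TXNIP had the largest fall with naproxen. It encodes an arrestin-like protein that binds thioredoxin and brakes glucose uptake, and its level is known to follow cellular glucose. TXNIP ranged from 29.96 to 127.89 TPM, median 44.175, with naproxen, below the control range in 9 of 10 libraries. It was at -0.40 ± 0.07 (adjusted limma p = 7.79e-05). With ibuprofen TXNIP ranged from 38.96 to 137.8 TPM, median 52, below the range in 6 of 9 libraries, and was at -0.19 ± 0.07 (0.391). On days 1 to 6 alone TXNIP was called with ibuprofen, at -0.28 ± 0.06 (adjusted limma p = 0.0117). It was also called with naproxen on those days, at -0.36 ± 0.06 (0.000924). On the days after day 6 TXNIP was at -0.08 ± 0.14 with ibuprofen and -0.43 ± 0.11 with naproxen, neither called. For both drugs together TXNIP was at -0.30 ± 0.05 (1.95e-05) and its relative ARRDC4, also a brake on glucose uptake, at -0.20 ± 0.04 (0.000513). Their DMSO averages were 0.03 and 0.01. On days 1 to 6 alone ARRDC4 was called with ibuprofen, at -0.24 ± 0.06 (adjusted limma p = 0.0453). With naproxen it was at -0.21 ± 0.06 on those days and not called (0.233). With 1 value per compound TXNIP was not called (0.412). Other naproxen falls were PRODH, PRKCSH, a glucosidase subunit of the endoplasmic reticulum (-0.13 ± 0.03), and MED29, of the Mediator complex (-0.13 ± 0.03). The call of MED29 was lost in 6 of 10 fits that left out a day.

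The promoter of TXNIP is shown because a pair of E-box-like sites 5 bases apart there is known as the carbohydrate response element, bound by MLX with MondoA or ChREBP. It lies on the minus strand at chr1:145996580-145996829 in GRCh38.p14, and capitals mark both copies of CACGAG.
TXNIP: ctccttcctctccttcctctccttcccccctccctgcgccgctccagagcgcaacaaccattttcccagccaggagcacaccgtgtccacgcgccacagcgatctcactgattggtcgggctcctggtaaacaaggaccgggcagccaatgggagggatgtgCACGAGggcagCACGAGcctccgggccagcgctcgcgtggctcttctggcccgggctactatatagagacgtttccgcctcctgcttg
The pair begins 88 bases before the start. In these exact letters 2 of 35116 promoter entries, 0.0057%, hold it on either strand, that of TXNIP itself being 1 of the 2. The letters searched were those of TXNIP, so its own hit was fixed in advance. Pairs with other letters were not searched, in ARRDC4 or elsewhere, so the share does not tell how common the element is. ARRDC4 carried the E-box CACGTG at position -210.

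**Figure D5:**
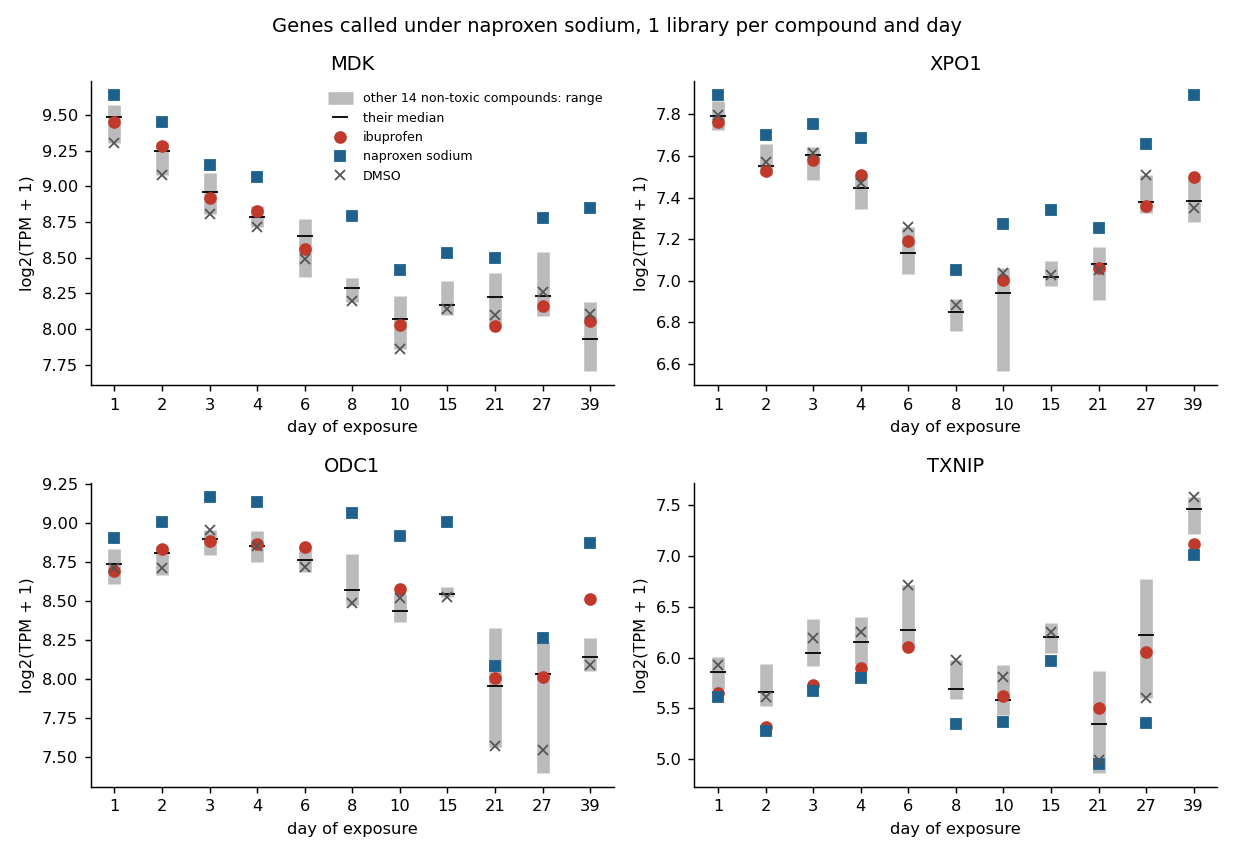
MDK, XPO1, ODC1 and TXNIP as log2(TPM + 1) by day of exposure, with 1 symbol per library and grey bars for the span of the other non-toxic compounds, ticks for their median and crosses for DMSO. Naproxen squares lie above the bars on each sampled day for MDK and XPO1, and below them for TXNIP except on day 21. Ibuprofen circles lie mostly within the bars for MDK, XPO1 and ODC1.

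Aspirin, a salicylate and no arylpropionic acid, also blocks the cyclooxygenases. It was the 1 compound compared with ibuprofen at a matched mass dose, 20 µg/ml, on the 5 days both have, 1, 2, 3, 4 and 6, so 1 pair was compared. CPT1A stood at 11.64, 7.46, 7.83, 11.78 and 7.05 TPM with ibuprofen and at 2.74, 1.76, 1.35, 1.03 and 0.4 TPM with aspirin. CPT1A was higher with ibuprofen on 5 of 5 days, by 2.09 ± 0.19 (95% interval 1.62 to 2.56). As given above, CPT1A was picked for its rise with these drugs, so this interval is a description. The share of all genes that were higher on each of these days is not given here. Over all genes this pair gave 0 calls, with 942 genes at an unadjusted limma p under 0.05 and an adjusted p of 0.474 for CPT1A. When the spread was pooled over all non-toxic compounds of these days, 10 genes were called. ANGPTL4 (1.13 ± 0.20), CPT1A (2.09 ± 0.13), KLF10 (0.52 ± 0.11), SLC25A20 (0.44 ± 0.09) and the collagen gene COL1A1 (0.31 ± 0.07) were higher with ibuprofen. TXNIP (-0.42 ± 0.06), HK2 (-0.45 ± 0.10), SLC2A1 (-0.32 ± 0.07), CYR61, a matrix protein (-0.32 ± 0.06) and PRODH (-0.26 ± 0.05) were lower. HK2 and SLC2A1 encode the hexokinase and the glucose transporter that start glucose use. Aspirin's own shifts of both are not given here. Both belong to the 12 hypoxia and glycolysis genes, of which 11 had positive differences from the controls with ibuprofen over all days. On days 1 to 6 SLC2A1 was called lower than the controls for ibuprofen and naproxen together. The 95% interval of the difference ran from -0.13 to 0.14 for PTGS1, from -0.17 to 0.16 for PTGS2 and from -0.04 to 0.08 for PLIN2. Aspirin averaged -0.08 from the same-day controls for CPT1A, and acetaminophen, at 10 µg/ml, 0.03. For TXNIP aspirin itself averaged 0.16, above the control mean on 4 of 5 days, and for PRODH 0.03. A difference from aspirin therefore holds aspirin's own shift as well.

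Time was tested for both drugs together as the difference of days 8 to 39 from days 1 to 6. ANGPTL4 was the 1 gene of 16318 called (0.00613%), its rise being larger on the later days by 1.07 ± 0.19 (adjusted limma p = 0.00109). The early rise was 0.70 ± 0.13 and the late rise 1.78 ± 0.17, beside 1.74 ± 0.09 for CPT1A on those later days. On days 1 to 6 ANGPTL4 was at 1.01 ± 0.16 with ibuprofen and 0.31 ± 0.19 with naproxen, the latter not called (adjusted limma p = 0.845). On days 8 to 39 it was at 2.65 ± 0.20 and 1.12 ± 0.17, both called, and CPT1A was at 2.17 ± 0.10 and 1.41 ± 0.09. ANGPTL4 was at or under 1.36 TPM in each control up to day 6, and with a pseudocount of 0.1 TPM the difference was 0.86 ± 0.43 and not called (0.977). The differences of PDK4 (0.47 ± 0.11, adjusted limma p = 0.194), ABCA1 (0.36 ± 0.09, 0.387) and CPT1A (0.18 ± 0.11, 0.981) did not pass.

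The remaining lists gave few calls. With ibuprofen DHCR7, the last step of cholesterol synthesis, was the 1 gene called among 20 of sterol and fatty acid synthesis (0.10 ± 0.03), and its call was lost in 7 of 9 fits that left out a day. With naproxen 0 of the 20 passed over all days, and the median was 0.01. On days 1 to 6 alone FDPS, HMGCS1 and IDI1 of this list were among 15 genes called higher with naproxen. On days 8 to 39 alone they were not called. Of the p53 (15), ATF4 (13), AHR (6), heat shock and metallothionein (10), NF-kB (10), hypoxia and glycolysis (12) and NOTCH (14) genes tested, 0 were called with ibuprofen. Naproxen gave 0 too. Of 12 genes of the amyloid precursor and its secretases, of interest because some drugs of this class shift the cut of gamma-secretase, 0 passed with either drug, and the ibuprofen differences lay between -0.06 and 0.10. The 14 S phase genes and the 14 genes of G2 and mitosis had 0 calls with either drug. The signs were uneven in places. With ibuprofen 14 of 14 G2 and mitosis genes had small negative differences, from -0.06 to -0.02, and 9 of 14 S phase genes were negative. With naproxen 9 and 12 of 14 were negative. Over all genes 49.1% were positive with ibuprofen and 52.6% with naproxen. The 14 pan-neuronal genes had 0 calls, with medians of -0.03 for ibuprofen and -0.01 for naproxen. The 12 mesenchymal genes also had 0, with medians of 0.09 and 0.08.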

How the data were processed

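The values are the gene-level TPM that the authors deposited, 1 column per library for 19084 gene symbols. The submitters' processing notes name hg19 as the build and list RSEM 1.2.1, Bowtie 0.12.8 and CASAVA 1.8.2. Columns sum to 999999.07 to 1000001.05 and hold no read depth.

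Compounds, days and doses were taken from sample labels. The 16318 genes that reached 1 TPM in 5 or more of the 414 libraries were tested with limma 3.58.1 in R 4.3.3 on log2(TPM + 1), with an intensity trend, a term for each day and the compound as block (correlation 0.0365 to 0.0475). The aspirin pair had a term for each day and no compound block. The scripts were tested on simulated data. P-values measure the spread between wells, which may be technical.

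The members and gene lists were chosen with earlier results of these data known. Named by rule were the PPAR target list, PTGS1, PTGS2, per comparison the 10 largest called rises and falls with at least 1 TPM and the same sign in at least 80% of libraries, and called or abundant genes of the other lists. Genes named from alternatives (DMSO alone, pooled spread) were chosen after their values were seen. So were FDPS, HMGCS1, IDI1, MCCC1, SLC16A14, SLC44A2, HMGN1, MCAM, CCND1, CPNE2 and GNAI2. RefSeq promoters were matched by symbol for 26 of 38 named genes, and entries for ABCG1, CLU, ECH1, KLF10, MARCH3, MDK, PRODH, SLC15A3, TH and TPPP3 were among those not matched. Results of a few named genes and of 1 gene list are not reported here.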

Additional observations from a re-analysis of the deposited data

Results flagged for a closer look

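The naproxen library of day 15 stood apart for ANGPTL4, at a deviation of 2.26 from the same-day controls with the next highest at 1.09 (log2 scale). On day 39 naproxen stood apart for SLC43A2, at 1.15 with the next at 0.5, and for MDK, at 0.89 with the next at 0.53. TXNIP was lowest with naproxen on day 27, at -0.88 with the next at -0.42. These 4 came from 43 groups of 1 gene and 1 drug, of which chance sets about 1 in 20 apart.

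The ANGPTL4 rise differed between days 8 to 39 and days 1 to 6 by 1.07 for both drugs together.

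The ibuprofen library of day 8, which the comparisons leave out apart from the fits that keep it, held CPT1A at 1.53 TPM beside 0.32 to 0.75 in the day 8 controls, and ANGPTL4 at 5.37 TPM beside 0 to 0.8. In that library 59.5% of genes at 10 TPM or more lay over 1 log2 from the controls, and the part of library quality in these values was not tested.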

How the results depend on the processing

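Called genes were 52 for ibuprofen, 21 for naproxen and 44 together. With no replicate block (compound not in the model) they were 139, 72 and 97, the reported ones among them. On days 1 to 6 ibuprofen had 29 calls, naproxen 24 and both together 18. Of these early calls 19, 9 and 14 were among the reported ones. On days 8 to 39 the calls were 11 for ibuprofen, 9 for naproxen and 16 together. Leaving out each day in turn gave 27 (without day 6) to 54 for ibuprofen, with 33 without day 2 and 33 without day 27, 13 (without day 39) to 26 for naproxen, and 28 (without day 39) to 46 together. With the day 8 ibuprofen library kept there were 6898 calls for ibuprofen, 174 together and 3 for time, and DHCR7 turned to -0.0156. On the days both drugs share ibuprofen had 27 calls. With 1 value per compound 7 were called for both together. DMSO as the only control, chosen after seeing the data, gave 1, 81 and 13. Against aspirin, 0 genes were called with no replicate block (day not in the model) and without any single day, and the pooled spread, also chosen after seeing the data, gave 10. For time, a pseudocount of 0.1 TPM gave 0, and leaving out each day (chosen after seeing the data) gave 1 to 6, with 2 without day 6, 3 without day 8, 5 without day 10 and 6 without day 15. The other counts run with another pseudocount, filter, centring or trend, or without aspirin and acetaminophen, were within 1.5 times. CPT1A stayed between 2.02 and 2.16 for ibuprofen and 1.19 and 1.29 for naproxen without any single day. Fewer samples enter the fits on part of the days, and the cause of the other shifts was not tested.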
